A study of Mus musculus with 38 samples.

Results

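Oligodendrocyte precursor cells (OPCs) that lack functional BMAL1 were compared between the end and the start of the light phase. The comparison rests on 8 of the 38 libraries of the study: 4 from Bmal1 knockout OPCs at zeitgeber time (ZT) 12, when lights go off, and 4 from knockout OPCs at ZT0, when lights come on. It was chosen by genotype and time alone and covers every gene of the count table. Both groups have the genotype NG2:Cre+;Bmal1fl/fl, written KO here, so the 2 groups share the deletion and differ in time of day. The Cre transgene is driven by the NG2 (Cspg4) promoter and removes the floxed part of Bmal1 that encodes the DNA-binding domain. The mice were 6 to 7 days old, housed in 12 h of light and 12 h of dark, and given no drug. Cells came from dissociated forebrain by immunopanning: plates coated with a lectin took out microglia and endothelial cells, and an antibody to PDGFRA then held the OPCs. Every library is a pool of 2 mice. For the test of whether the time difference depends on genotype, 4 ZT0 and 6 ZT12 libraries of NG2:Cre-;Bmal1fl/fl mice (WT) were used, which carry the floxed alleles without Cre. Cre-positive mice with intact Bmal1 were not analysed here.

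BMAL1, encoded by Arntl, pairs with CLOCK or NPAS2, binds E-box sequences and drives the genes of its own repressors, the PER and CRY proteins, together with Nr1d1, Dbp and many output genes. This loop times transcription over the day in most cells, and its loss removes the main positive arm of the clock. OPCs divide in the young forebrain, migrate, and mature into the oligodendrocytes that make myelin, a process with a large demand for lipid and for mitochondrial energy.

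The 8 libraries held between 21.5 and 28.1 M (mega) counts, against 19.4 to 39 M over all 38. Ribosomal RNA made up 0.839% to 1.30% of counts at ZT0 and 0.409% to 0.958% at ZT12, and 1 of the 8 libraries (KO ZT0 replicate 1) carried RNA of females only although the labels speak of both sexes. OPC markers were abundant: summed levels of 20 OPC markers were 17520 to 20870 CPM (counts per M of the scaled library total) at ZT0 and 15170 to 19780 CPM at ZT12, against 626.5 to 875.8 CPM for 17 markers of myelinating oligodendrocytes. RNA of other cells was present as well. Summed levels of 20 microglia and macrophage markers ranged from 5228 to 10540 CPM at ZT0 and from 8729 to 15550 CPM at ZT12. Arntl itself was counted at 18.4, 22.6, 23.4 and 18.8 CPM at ZT0 and at 20.9, 22.8, 21.2 and 23.3 CPM at ZT12, and at 19.4 to 33.2 CPM in WT. A count over the whole gene does not show the deleted part, so it is no check of the knockout. In bulk RNA, fewer cells of a type and less RNA per cell cannot be told apart.

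Between ZT0 and ZT12 the KO cells changed mainly downward. Of 22798 genes tested, 745 (3.27%) passed a false discovery rate of 0.05 in the quasi-likelihood test of edgeR, adjusted by the method of Benjamini and Hochberg. There were 187 genes higher at ZT12 (0.82%) and 558 lower (2.45%), so 74.9% of the called genes fell. These 2 shares are the background for each count of called list members given below. Over all tested genes the median log2 fold change was 0.01, and 11256 genes had a negative and 11542 a positive value. The scaling between libraries places most genes near 0, so these values cannot show whether a general shift was present. Changes were moderate in size, with a median absolute log2 fold change of 0.60 among the called genes, 385 of them past 1.5-fold and 106 past 2-fold. The fit took its spread from all 38 libraries, and the count depends on this: a fit of the 8 libraries alone called 1 gene, Grk3, which encodes a kinase of G protein-coupled receptors. Single libraries weigh heavily too: leaving out replicate 3 of KO ZT0 left 10 called genes, replicate 3 of KO ZT12 24, replicate 1 of KO ZT12 25 and replicate 1 of KO ZT0 256, whereas leaving out replicate 4 of KO ZT12 gave 1294, and the bars by setting show the whole range.

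**Figure D1:**
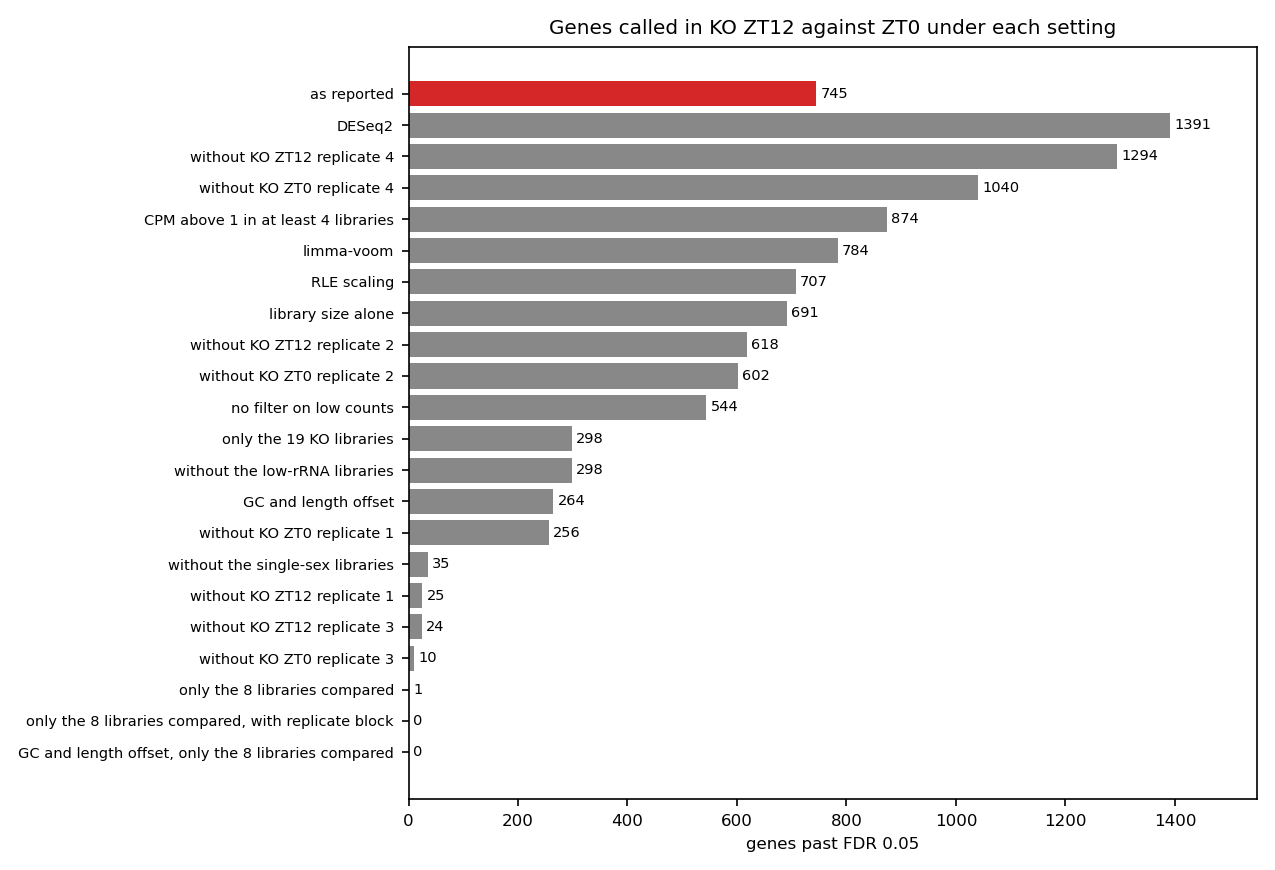
Genes past a false discovery rate of 0.05 in KO ZT12 against ZT0 (horizontal axis) under each way of fitting the data (rows). The red bar is the 745 genes reported here; grey bars run from 1391 genes with DESeq2 to 0.

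The genes that fell and the genes that rose also differed in build. Called genes that were lower at ZT12 had a median length of 2469 bases and a median transcript GC content of 55.2%, those that were higher 7887 bases and 44.8%, and all tested genes 3220 bases and 48.8%. Among the 5683 genes with the highest GC content (53.8% and above), 327 genes were called lower and 7 higher. Among the 5701 genes with the lowest (up to 44.1%), 36 were lower and 84 higher. Spearman's rho across genes between a library's deviation from the mean of all libraries and GC content was -0.549, -0.244, -0.271 and -0.258 at ZT12 and -0.0901, -0.0354, 0.0834 and -0.248 at ZT0. KO ZT0 replicate 4 thus lay inside the ZT12 range and the other 3 ZT0 libraries above it. With a trend on GC content and gene length taken out of each library, 264 genes were called, 89 higher and 175 lower, of which 217 were among the 745. What part of each gene's change goes with this trend was not tested beyond that fit. Values from it are given below for called genes described here that did not pass in it, except cytosolic ribosomal genes named only as family members.

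**Figure D2:**
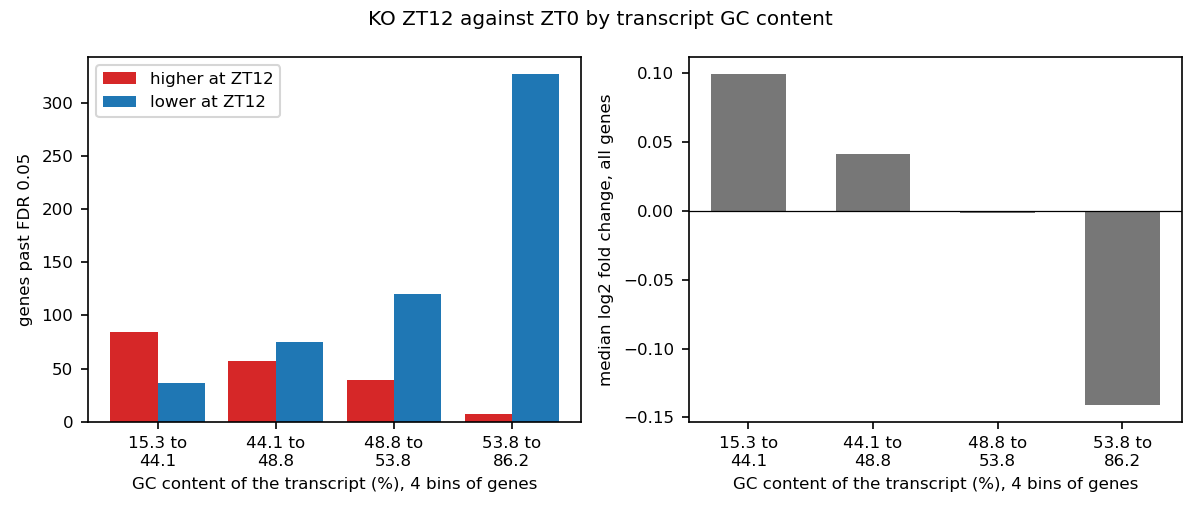
Left, genes called higher (red) and lower (blue) at ZT12 in 4 bins of transcript GC content (percent) of about equal size. Right, the median log2 fold change of all tested genes in the same bins, which goes from 0.10 in the lowest to -0.14 in the highest.

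Part of the nuclear genes for the respiratory chain of mitochondria fell. Of 24 such genes for oxidative phosphorylation, 10 were called lower, against 2.45% of all tested genes, none was called higher, and 23 had a negative log2 fold change, with a median of -0.41 against 0.01 for all genes. Atp5k, a small subunit that helps ATP synthase form dimers in the inner membrane, fell most. Its level was 12.2, 11.1, 21.3 and 10.1 CPM in the 4 libraries of ZT0 and 2.19, 6.66, 1.98 and 5.48 CPM in those of ZT12. Every ZT12 library lay below every ZT0 library, with KO ZT0 replicate 3 standing highest. The log2 fold change was -1.74 ± 0.31 (standard error), a 3.35-fold lower mean level (edgeR adjusted p = 0.0049). Atp5k is on chromosome 5 (108433244 to 108434448, minus strand, GRCm38), and its promoter is shown because it is the respiratory gene with the largest fall. In the 300 bases around its start (250 before and 50 after, RefSeq on GRCm38.p6, chr5:108434350-108434649, minus strand), capitals mark the core of the NRF1 motif, GCATGCGC, found on both strands in overlap, and an ETS core, CCGGAAG, on the opposite strand:

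Atp5k: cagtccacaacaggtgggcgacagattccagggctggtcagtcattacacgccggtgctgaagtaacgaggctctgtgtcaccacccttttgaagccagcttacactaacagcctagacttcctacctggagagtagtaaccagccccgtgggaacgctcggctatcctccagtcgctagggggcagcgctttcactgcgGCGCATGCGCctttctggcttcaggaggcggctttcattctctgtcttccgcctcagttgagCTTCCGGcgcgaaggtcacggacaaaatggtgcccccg

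NRF1 and ETS family factors are textbook activators of nuclear genes for respiration. The NRF1 core stood in the windows of 4 of the 17 oxidative phosphorylation genes found in the promoter table, against 3.05% of the 27025 genes in that table, and the ETS core also in 4 of 17 against 9.93%. Over all called genes found in that table, the NRF1 core stood in 4.17% of those that fell and 4.76% of those that rose. For the ETS core these shares were 17.4% and 20.6%. These are matches of letters and not measured binding.

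Subunits of several complexes took part. Ndufa1, a small subunit of complex I, was at 14.9, 18.5, 28.3 and 15.5 CPM at ZT0 and at 8.18, 11.9, 14.0 and 11.9 CPM at ZT12, so the times did not overlap. It fell by 0.75 on the log2 scale (edgeR adjusted p = 0.017). Ndufa5, of the same complex, went from 26.5 to 41.7 CPM down to 12.3 to 22.0 CPM, with a log2 fold change of -0.74 (edgeR adjusted p = 0.015). Uqcrh, the hinge protein of complex III, was measured at 67.7, 63.1, 104 and 62.5 CPM and later at 44.9, 53.4, 44.5 and 52.9 CPM. Its log2 fold change was -0.60 ± 0.15 (edgeR adjusted p = 0.020), again with no overlap between times. Ndufs5, also of complex I and among the largest falls of all genes, fell by 1.41 (edgeR adjusted p = 0.045), with values at ZT12 from 1.35 to 9.77 CPM that overlapped those at ZT0 from 9.26 to 19.7 CPM. The other members called were Ndufa2, Ndufa4, Ndufb7, Ndufs6, Cox5b and Cox7b.

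Wider gene families, picked by symbol after the values were seen, gave the same direction. They share members with the list above, such as Ndufa1 and Atp5k, so they are no independent support. Of 46 Nduf genes by symbol, mostly subunits and assembly factors of complex I, 18 were called lower (all genes, 2.45%) and none higher. In this family 43 were negative, with a median log2 fold change of -0.38. All 17 Atp5 genes were negative and 5 were called. Among them Atp5e, the epsilon subunit of ATP synthase, was at 54.5 to 92.1 CPM at ZT0 and 28.9 to 49.5 CPM at ZT12, and Ndufc2 of complex I at 39.9 to 80.9 CPM and 18.7 to 33.1 CPM. Of 77 genes for mitochondrial ribosomal proteins, 13 were called lower, against the same 2.45% of all genes, none higher, and 67 were negative. The 12 tested genes of the mitochondrial genome itself, which include the catalytic cores of the same complexes, had a median log2 fold change of 0.00 and no called member. For mt-Co1, the first subunit of cytochrome c oxidase, the log2 fold change was -0.04 (edgeR adjusted p = 0.91), and for mt-Cytb, of complex III, -0.29 (edgeR adjusted p = 0.24). With the trend on GC content and length removed, 4 of the 24 oxidative phosphorylation genes were called lower and the median was -0.29; Atp5k (-1.47, edgeR adjusted p = 0.0070), Uqcrh, Ndufa2, Ndufa4, Ndufc2 and Atp5e stayed called. Ndufa1 (-0.54, edgeR adjusted p = 0.062), Ndufa5 (-0.53, edgeR adjusted p = 0.052) and Ndufs5 (-1.21, edgeR adjusted p = 0.099) did not pass there, nor did Ndufb7, Ndufs6, Cox5b and Cox7b, at -0.58 to -0.32 (edgeR adjusted p from 0.057 to 0.12). Leaving out 1 library of the 8 moved the list's median between -0.49 and -0.27 and its called genes between 0, without KO ZT0 replicate 3, and 12.

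**Figure D3:**
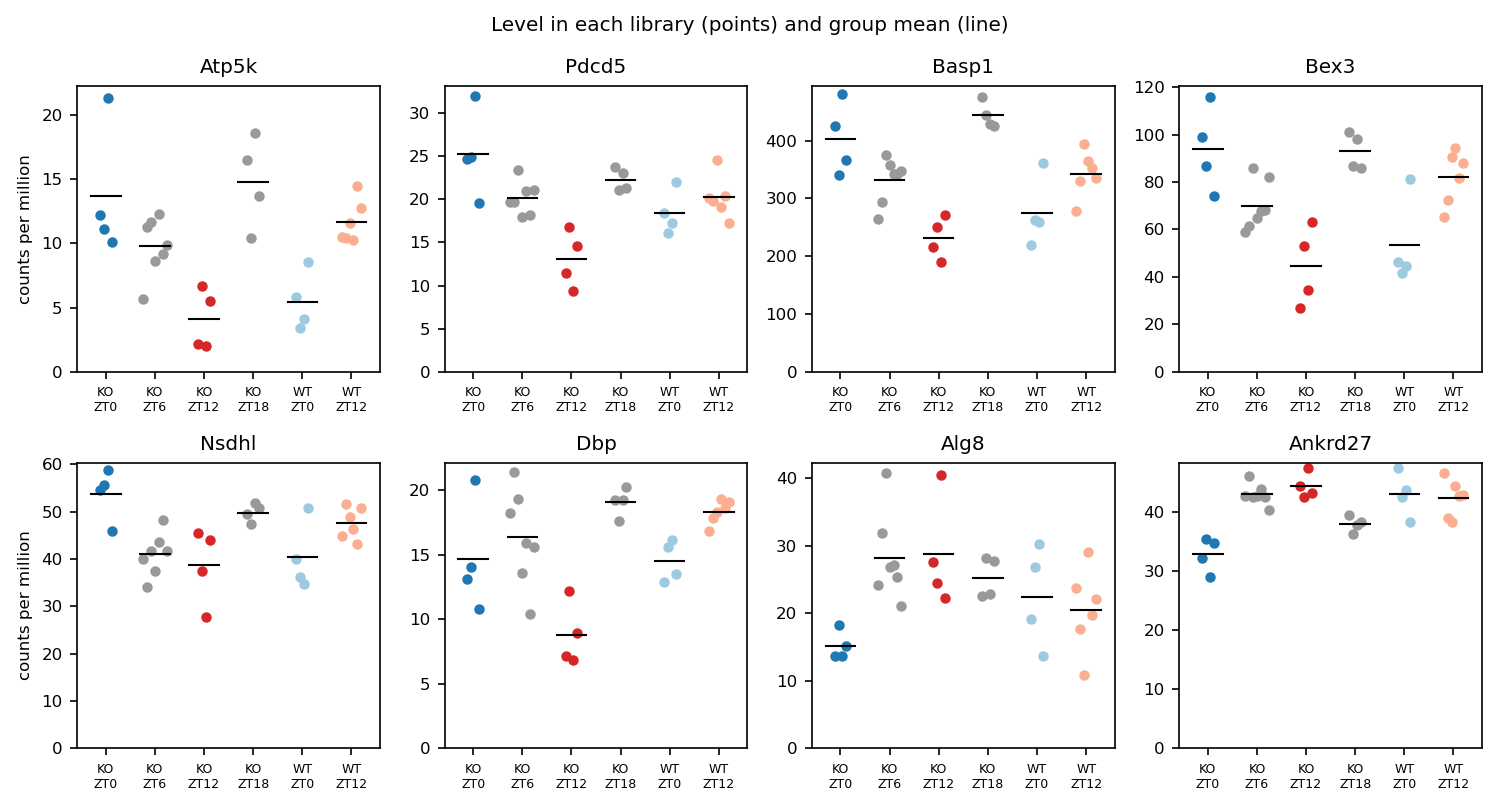
Level in CPM (vertical axes, from 0) of 8 genes in each library (points) with group means (lines), for the 4 KO times and for WT at ZT0 and ZT12. Red points (KO ZT12) lie below blue points (KO ZT0) for Atp5k, Pdcd5, Basp1, Bex3 and Nsdhl, overlap for Dbp, and lie above for Alg8 and Ankrd27.

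Few cholesterol synthesis genes passed the test. All 24 genes of the pathway and its regulators had a negative log2 fold change, with a median of -0.42, and 2 were called (all genes, 2.45% lower). The first was Mvd, mevalonate diphosphate decarboxylase, an early enzyme of the isoprenoid branch, measured at 73.0, 42.1, 73.5 and 51.5 CPM at ZT0 and at 24.5, 28.1, 26.4 and 48.4 CPM at ZT12. KO ZT12 replicate 4 stood apart among these and reached into the ZT0 range, and the log2 fold change was -0.92 ± 0.20 (edgeR adjusted p = 0.012). The second, Nsdhl, which removes methyl groups from sterol intermediates, was at 54.6, 55.6, 58.8 and 45.8 CPM and then at 45.5, 37.4, 27.7 and 43.9 CPM. Its times did not overlap, narrowly, and it fell by 0.48 (edgeR adjusted p = 0.026). Hmgcs1, the enzyme that supplies HMG-CoA, was at 360 to 650 CPM and 311 to 405 CPM, with a log2 fold change of -0.49 that did not pass (edgeR adjusted p = 0.090). Srebf2, the transcription factor that controls the pathway, had a log2 fold change of -0.25 (edgeR adjusted p = 0.12).

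Neither enzyme kept its call once the GC and length trend was removed (Mvd -0.65, edgeR adjusted p = 0.081; Nsdhl -0.44, edgeR adjusted p = 0.062), and the list's median was then -0.38 with all 24 members still negative. Across the fits that left out 1 library the median lay between -0.49 and -0.29, with 0 to 5 members called. Of 18 fatty acid genes, 2 were called lower (all genes, 2.45%), and the median was -0.08. Tecr, which completes each round of chain elongation, had a log2 fold change of -0.38 (edgeR adjusted p = 0.022). It had -0.19 with an edgeR adjusted p of 0.18 once the trend was removed. Acsl3, which activates fatty acids, had -0.41 (edgeR adjusted p = 0.037). Fasn, the fatty acid synthase (-0.20, edgeR adjusted p = 0.46), and Scd2, a desaturase abundant in the oligodendrocyte lineage (-0.26, edgeR adjusted p = 0.18), did not pass. Hk1, the hexokinase that traps glucose, was at 89.4 to 100 CPM at ZT0 and 46.9 to 75.5 CPM at ZT12 and was the called member of 21 glycolysis genes (-0.56, edgeR adjusted p = 0.015).

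Of the clock itself, 1 of 24 genes was called, where 3.27% of all tested genes were, so the count is near the background. Dbp, a PAR bZIP transcription factor and a classical direct output of BMAL1, was at 13.1, 14.0, 20.8 and 10.8 CPM at ZT0 and at 7.18, 12.2, 6.83 and 8.93 CPM at ZT12. KO ZT12 replicate 2 lay above KO ZT0 replicate 4, so the times overlapped, and the log2 fold change was -0.74 ± 0.18 (edgeR adjusted p = 0.019). At the other times Dbp was at 10.4 to 21.4 CPM in the 7 libraries of KO ZT6 and at 17.6 to 20.2 CPM in the 4 of KO ZT18, so its mean was lowest at ZT12 among the 4 KO times. The call was lost with the GC and length trend removed (-0.41, edgeR adjusted p = 0.19), and Dbp overlaps Sphk2 on the other strand, whose reads the counting may not separate. The promoter window of Dbp (GRCm38.p6, chr7:45704997-45705296, plus strand) is shown as that of the clock gene that changed. Capitals mark CCAAT boxes, CCAAT, and a GC box, GGGCGG, here all read on the opposite strand:

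Dbp: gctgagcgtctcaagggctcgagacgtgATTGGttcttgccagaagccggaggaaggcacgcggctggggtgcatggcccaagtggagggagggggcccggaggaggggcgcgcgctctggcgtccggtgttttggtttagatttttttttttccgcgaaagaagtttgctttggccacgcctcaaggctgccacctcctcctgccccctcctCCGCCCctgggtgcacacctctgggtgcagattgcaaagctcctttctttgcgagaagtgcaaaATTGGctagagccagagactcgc

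The E-box CACGTG did not occur in these 300 bases. It stood in 5 of the 19 clock genes found in the promoter table and in 8.09% of all 27025 genes.

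The other clock genes did not pass the test. Among activators, Clock was at 57.9 to 81.7 CPM at ZT0 and 81.0 to 118 CPM at ZT12, a log2 fold change of 0.41 that came close (edgeR adjusted p = 0.078), while Npas2 was at -0.08 and Arntl at 0.08 (edgeR adjusted p = 0.94 and 0.79). Per3, of the repressors, was at 26, 29, 24.2 and 23.4 CPM and then at 36.9, 33.2, 38.2 and 34.4 CPM. All ZT12 libraries stood above all ZT0 libraries, yet the log2 fold change of 0.48 did not pass in this fit (edgeR adjusted p = 0.12). Per1 (0.10), Per2 (-0.01), Cry1 (-0.25) and Cry2 (-0.15) had edgeR adjusted p-values between 0.37 and 0.98. Nr1d1 and Nr1d2, which encode the REV-ERB repressors and normally swing widely over the day, had log2 fold changes of -0.18 and 0.17 (edgeR adjusted p = 0.78 and 0.60). Nr1d1 was at 14.8 to 19.6 CPM at ZT0 and 11.0 to 18.3 CPM at ZT12. Ciart, an inhibitor of BMAL1 and CLOCK, had 0.26, the E-box repressors Bhlhe40 and Bhlhe41 -0.68 and 0.02, and the bZIP factors Tef, Hlf and Nfil3 -0.04, -0.27 and 0.05, all without a call. The median over the 24 genes was -0.01.

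Genes with the strongest statistical support fell across several functions. Pdcd5, a small protein linked to apoptosis and to the folding of tubulin, had the smallest p of the comparison, with 24.7, 24.9, 32.0 and 19.6 CPM at ZT0 and 11.5, 16.8, 9.40 and 14.6 CPM at ZT12. No ZT12 library reached a ZT0 library. The log2 fold change was -0.95 ± 0.15, a 1.94-fold lower mean (edgeR adjusted p = 0.0029). Basp1, a membrane protein of growth cones that is also found in glia, was at 426, 340, 480 and 367 CPM and then 216, 251, 190 and 272 CPM. It fell by 0.80 ± 0.13 (edgeR adjusted p = 0.0029), with the times again apart. Cd3eap, a subunit of RNA polymerase I, fell by 0.85, the splicing-related genes Zrsr1 and Zmat5 by 0.97 and 1.15, and Eef1a2, a translation elongation factor of neurons and muscle, by 0.91, each with an edgeR adjusted p of 0.0049. Cd3eap, Zrsr1 and Zmat5 each overlap a gene on the other strand. Pcsk1n, the inhibitor of a prohormone convertase, was at 167 to 268 CPM at ZT0 and 75.3 to 139 CPM at ZT12 and fell by 0.92 (edgeR adjusted p = 0.0049). With the GC and length trend removed, all 7 of these genes stayed called, from Eef1a2 at -0.60 (edgeR adjusted p = 0.046) to Zrsr1 at -0.98 (edgeR adjusted p = 0.0070).

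Among the 10 smallest p-values 1 gene rose, Ankrd27, which encodes VARP, an endosomal adaptor of RAB proteins. It was at 32.2, 35.4, 29.1 and 34.7 CPM at ZT0 and at 44.5, 42.6, 47.5 and 43.3 CPM at ZT12, with a log2 fold change of 0.44 ± 0.08 (edgeR adjusted p = 0.0049). Each of the times was tight and they did not overlap. Ankrd27 and Pdcd5 are neighbours on chromosome 7 that run toward each other, with 2755 bases between their annotated ends, and they changed in opposite directions. This adjacency was noticed after the values were seen.

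Bex3, an adaptor of the p75 neurotrophin receptor on the X chromosome, was another of the 10. Its level was 98.8, 86.8, 116 and 73.9 CPM at ZT0 and 27.1, 53.1, 34.3 and 63.2 CPM at ZT12, apart in every library, and the log2 fold change was -1.08 ± 0.19 (edgeR adjusted p = 0.0049). It belongs to a cluster of small genes, Bex and Tceal, that lie near each other on the X chromosome, apart from Bex6 on chromosome 16. Of 12 such genes tested, a family chosen after its values were seen, 7 were called lower (all genes, 2.45%) and none higher, and 10 were negative, with a median of -0.82. Tceal6 went from 16.7, 15.9, 19.5 and 12.9 CPM to 6.08, 8.49, 3.50 and 11.2 CPM. Bex2 was at 68.9 to 113 CPM and 33.0 to 63.7 CPM, and Bex1 at 12.8 to 21.4 CPM and 5.00 to 13.1 CPM, the latter with overlap. Their log2 fold changes were -1.15, -0.91 and -0.88 (edgeR adjusted p = 0.0084, 0.0085 and 0.030). The remaining called members were Tceal1, Tceal3 and Tceal5. With the GC and length trend removed, Bex3 (-0.85), Bex2 (-0.66), Tceal6 (-0.91), Tceal1 (-0.85), Tceal3 (-0.78) and Tceal5 (-0.94) stayed called and Bex1 did not (-0.65, edgeR adjusted p = 0.11).

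Most of the family shares a promoter element, shown here because 7 of its 12 members were called lower. The E-box CACGTG was found in the windows of 9 of the 12 genes, and not in those of Bex6, Tceal9 and Bex2, of which Bex2 was called, against 8.09% of all genes in the table. In all 9 it was followed by an A, as CACGTGA, a string found in 4.29% of all genes on either strand. In 7 of the 12 it was also preceded by TGAC at a fixed distance, as TGACNNNNNNNNCACGTGA, a string held by 16 of the 27025 genes. The following 30-base windows come from RefSeq on GRCm38.p6, in the direction of each gene, with the E-box in capitals.

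Bex1 (chrX:136215499-136215528, minus strand): tgacgcaagtggCACGTGactagcccacgc
Bex3 (chrX:136270268-136270297, plus strand): acgcagggccctCACGTGacccggggctgc
Tceal1 (chrX:136707969-136707998, plus strand): acgcgctcccctCACGTGaccaggagccta
Tceal3 (chrX:136666366-136666395, plus strand): tgacgcggtgttCACGTGaccggccaggcg
Tceal5 (chrX:136203882-136203911, minus strand): tgacgttcctgtCACGTGatcaggagcaga
Tceal6 (chrX:135210684-135210713, minus strand): tgacgctttgctCACGTGactggcttggtg
Bex4 (chrX:136138975-136139004, plus strand): tgacgcaagtggCACGTGactagcccacgc
Tceal8 (chrX:136172217-136172246, minus strand): tgacgcgatcctCACGTGaccagcagtcga
Tceal7 (chrX:136223969-136223998, plus strand): tgacataatcctCACGTGattagaagctga

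The first 6 belong to genes called lower at ZT12, and the last 3 to Bex4 (log2 fold change -0.40, edgeR adjusted p = 0.31), Tceal8 (-0.47, edgeR adjusted p = 0.055) and Tceal7 (0.63, edgeR adjusted p = 0.84), which were not. Tceal7 holds the longer string with TGAC and had a positive value, so the element did not go with the call in every gene. Tceal6 holds a further CACGTG, not shown. The windows of Bex1 and Bex4 are identical, and reads of such close copies may have been shared between them. Over all called genes found in the promoter table, CACGTG stood in 7.41% of the 432 that fell and in 13.5% of the 126 that rose. The list of fallers as a whole thus held the E-box about as often as all genes did, and binding at these sites was not measured here.

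The largest falls among genes above 2 CPM on average were of mixed function. Hddc3, a phosphohydrolase, fell by 1.88 (edgeR adjusted p = 0.015), from 7.50, 8.68, 9.67 and 7.70 CPM to 3.15, 2.60, 1.77 and 1.61 CPM, and lies across another gene on the opposite strand. Efna3, an ephrin ligand, fell by 1.65, Fah, the last enzyme of tyrosine breakdown, by 1.53, and Avpi1 by 1.49. Nat14 (-1.38), Rpp25, a subunit of RNase P (-1.30), Cdk5r2, an activator of CDK5 in neurons (-1.29), Sncb, beta-synuclein (-1.28), and Pin4, a prolyl isomerase (-1.27), followed. The edgeR adjusted p-values of these 8 genes lay between 0.0070 and 0.034. Rpp25, Sncb and Pin4 lost the call with the GC and length trend removed (edgeR adjusted p = 0.13, 0.071 and 0.065) at log2 fold changes of -0.98, -0.96 and -1.05. Several of these genes are known from neurons, and neuron markers moved with them: 18 of 20 were negative with a median of -0.49, 1 of them called (Gap43, a growth cone protein, -0.63, edgeR adjusted p = 0.024, and -0.48 with 0.087 once the trend was removed). The summed level of the 20 markers was 1955 to 2636 CPM at ZT0 and 1925 to 2378 CPM at ZT12, and Map2 and Dcx, which mark neurons and young neurons, had log2 fold changes of -0.02 and -0.01. Their part in the result was not tested.

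Fewer genes rose, and the levels of the largest risers at ZT12 reached from those of Elmo3 to 50.1 to 78.6 CPM for Myo7a. Low levels were not particular to the risers. Efna3 and Avpi1, among the largest falls, were at 2.45 to 6.21 CPM and 2.83 to 4.35 CPM at ZT0. Elmo3, of a family that guides actin remodelling, had the largest rise, with 0.833, 2.01, 1.32 and 1.97 CPM at ZT0 and 3.02, 3.62, 5.03 and 2.47 CPM at ZT12. Although the counts were small, the times did not overlap, and the log2 fold change was 1.20 ± 0.33 (edgeR adjusted p = 0.038). Glis3, a zinc finger transcription factor, rose by 1.13, Icos, a costimulatory receptor of T cells, by 1.04, Abi3, an actin regulator known from microglia, by 1.03, and Ceacam1, an adhesion molecule, by 1.01. Ptp4a1, a tyrosine phosphatase whose symbol is carried by 2 overlapping gene models, rose by 1.00, and Naip6, an inflammasome sensor, by 0.98. Alg8, a glucosyltransferase of N-glycan assembly, was at 13.7, 18.3, 13.6 and 15.1 CPM and then at 27.6, 24.5, 40.4 and 22.3 CPM. All of the later values exceeded all of the earlier ones, and the log2 fold change was 0.92 (edgeR adjusted p = 0.019). Dennd2c (0.93), Stag3, a cohesin subunit (0.87), Myo7a, an unconventional myosin (0.87), and Abcb1b, a drug efflux pump (0.84), made up the rest of the 12. With the GC and length trend removed, Ceacam1, Naip6, Dennd2c and Glis3 were no longer called (edgeR adjusted p between 0.051 and 0.086), with log2 fold changes of 0.98, 0.92, 0.87 and 1.07 that were close to those before.

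Grk3, named because it alone passed in the fit of the 8 libraries, was at 27, 30, 31.6 and 29.4 CPM at ZT0 and 57.1, 53.2, 52.2 and 48.5 CPM at ZT12. Its groups were narrow and far apart, with a log2 fold change of 0.84 ± 0.20 (edgeR adjusted p = 0.020, and 0.039 from the 8 libraries alone). Markers of microglia and macrophages moved with the risers. All 20 had a positive log2 fold change, from 0.05 to 0.65 with a median of 0.45, and none was called. Csf1r, the receptor that microglia need to survive, and Cx3cr1, the fractalkine receptor, had values of 0.64 and 0.65 (edgeR adjusted p = 0.19 and 0.21). Astrocyte markers were positive in 14 of 18 with a median of 0.28, for instance Slc1a3, a glutamate transporter, at 0.33 (edgeR adjusted p = 0.30). Whether these cells account for any of the risers was not tested.

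**Figure D4:**
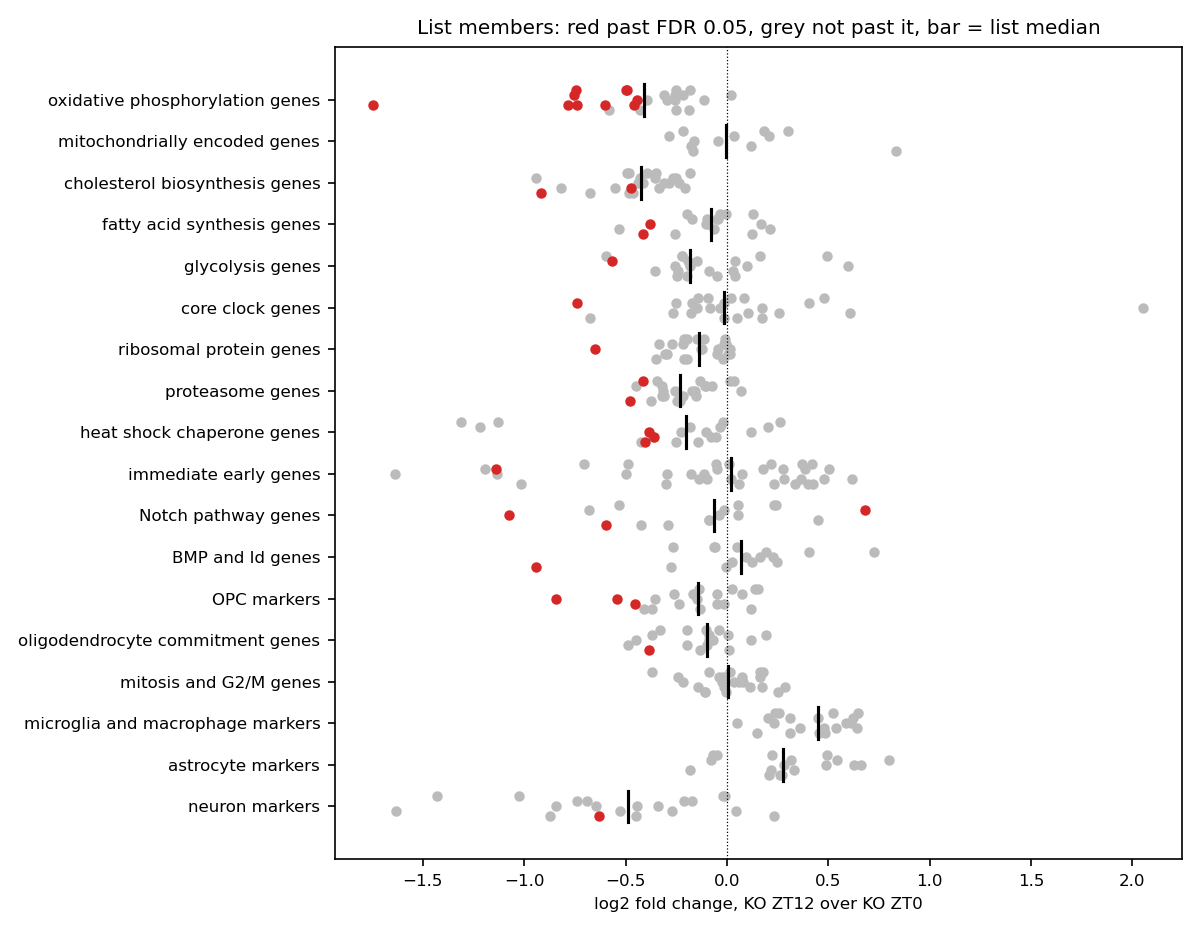
Log2 fold change of KO ZT12 over ZT0 (horizontal axis) for the members of 18 gene and marker lists (rows). Red points passed a false discovery rate of 0.05, grey points did not, and bars are list medians: oxidative phosphorylation (-0.41) and cholesterol synthesis (-0.42) lie left of 0 and microglia markers (0.45) right of it.

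Genes of OPC identity and of their signalling changed in places. Of 20 OPC markers, 3 were called lower (all genes, 2.45%), 15 were negative and the median was -0.14. C1ql1, a secreted synaptic organizer, was at 288, 282, 297 and 213 CPM at ZT0 and 112, 196, 95.8 and 197 CPM at ZT12. It fell by 0.85 with no overlap between times (edgeR adjusted p = 0.0096). Olig1, a bHLH factor of the oligodendrocyte lineage, was at 2180 to 2610 CPM and 1390 to 1840 CPM (-0.54, edgeR adjusted p = 0.024), and Cacng4, an AMPA receptor partner, fell by 0.46 (edgeR adjusted p = 0.034). All 3 lost their calls with the GC and length trend removed, C1ql1 at -0.27 and Olig1 at -0.22 with edgeR adjusted p of 0.24 for both, and Cacng4 at -0.36 with 0.13. Pdgfra, the receptor used to select the cells, and Cspg4 (NG2), whose promoter drives Cre, had log2 fold changes of -0.14 and -0.26 (edgeR adjusted p = 0.60 and 0.37).

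In the Notch pathway, which keeps precursors undifferentiated, 16 genes were tested. Among these, 1 of 3 receptors was called higher (all genes, 0.82%) and 2 target genes lower (all genes, 2.45%). Notch2 was at 36.2, 63.5, 52.2 and 63.5 CPM at ZT0 and 72.5, 101, 96.2 and 76.2 CPM at ZT12, a log2 fold change of 0.68 (edgeR adjusted p = 0.025), with no overlap. Hes5, a target repressor, was at 60.3, 34.5, 73.2 and 35.9 CPM and then 16.4, 28.4, 16.5 and 35.6 CPM. KO ZT12 replicate 4 fell inside the ZT0 range, and the log2 fold change was -1.07 (edgeR adjusted p = 0.010). Nrarp, a feedback inhibitor and target, fell by 0.59 (edgeR adjusted p = 0.034), whereas Notch1 (0.23), Notch3 (-0.04) and the targets Hey1 (-0.42), Hey2 (-0.53) and Heyl (-0.68) did not pass (edgeR adjusted p from 0.15 to 0.97). The median of the 16 was -0.06. With the GC and length trend removed none of the 3 passed, with Notch2 at 0.65 (edgeR adjusted p = 0.051), Hes5 at -0.63 (edgeR adjusted p = 0.11) and Nrarp at -0.47 (edgeR adjusted p = 0.10). Bambi, a decoy receptor of BMP signalling, was the called gene of 16 BMP and Id genes, at 5.8 to 7.4 CPM at ZT0 and 2.35 to 4.13 CPM at ZT12 (-0.94, edgeR adjusted p = 0.014).

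Steps of differentiation and division showed little. Sirt2, a deacetylase that rises as precursors commit, fell by 0.39 (edgeR adjusted p = 0.029, and -0.33 with 0.084 once the GC and length trend was removed) as the called member of 18 commitment genes, and Fyn, a kinase of the same stage, had -0.33 (edgeR adjusted p = 0.059) and Gpr17, the receptor that marks committed cells, -0.10 (edgeR adjusted p = 0.76). No gene of 17 tested myelin markers was called: Cnp had -0.37 (edgeR adjusted p = 0.058) and Mbp, the basic protein of myelin, 0.01 (edgeR adjusted p = 0.99). None of 24 DNA replication and 24 mitosis genes was called either, with medians of 0.08 and 0.01. Mki67, the proliferation antigen, had 0.18 and Pcna, the replication clamp, -0.10 (edgeR adjusted p = 0.50 and 0.73).

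Protein synthesis and quality control genes leaned downward with few calls. Rpl13, a protein of the large ribosomal subunit, was at 716 to 1100 CPM at ZT0 and 438 to 658 CPM at ZT12 (-0.65, edgeR adjusted p = 0.011) and was the called gene of 24 ribosomal genes, whose median of -0.14 turned to 0.01 with the GC and length trend removed. Rplp0, of the ribosomal stalk, had 0.01 (edgeR adjusted p = 0.99). Of 24 proteasome genes, 21 were negative with a median of -0.23, and 2 were called lower (all genes, 2.45%). These were Psmc1 (-0.48) and Psma6 (-0.41), with edgeR adjusted p of 0.025 and 0.034. Psma6 was not called with the trend removed (-0.26, edgeR adjusted p = 0.079). Among 20 heat shock chaperones, 3 partners of HSP90 were called lower (all genes, 2.45%). These were Stip1 (-0.38), Ahsa1 (-0.36) and Fkbp4 (-0.40), with edgeR adjusted p from 0.023 to 0.050. Stip1 (-0.28, edgeR adjusted p = 0.055) and Fkbp4 (-0.27, edgeR adjusted p = 0.11) did not pass with the trend removed. Hspa8, the constitutive HSP70, had 0.12 (edgeR adjusted p = 0.82), and Hspa5, the chaperone of the endoplasmic reticulum, 0.20 (edgeR adjusted p = 0.61). The temperature-responsive RNA-binding genes Cirbp and Rbm3 had -0.19 and 0.08 (edgeR adjusted p = 0.26 and 0.70).

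Immediate early genes, which respond within minutes to activity or handling, did not move as a list. Their median was 0.02 over 35 genes, with Fos at 0.42, Jun at 0.37 and Egr1 at 0.50, all without a call (edgeR adjusted p from 0.41 to 0.53). The called member was Nr4a2, an orphan nuclear receptor, at 10.7, 5.53, 15.1 and 13.5 CPM and then 4.11, 5.27, 4.09 and 6.88 CPM, with overlap between times (-1.14, edgeR adjusted p = 0.046, and -1.12 with 0.076 once the trend was removed). Ddit4, an inhibitor of mTORC1 induced by glucocorticoids and stress, fell by 0.67 (edgeR adjusted p = 0.045, and -0.43 with 0.18 once the trend was removed), while Sgk1, another glucocorticoid target, had 0.51 (edgeR adjusted p = 0.31). Ifit2, an interferon-induced gene, was at 47.4 to 53.2 CPM at ZT0 and 28.7 to 38.9 CPM at ZT12 (-0.48, edgeR adjusted p = 0.015), and Nfkbiz, a regulator of NF-kB, had 0.70 (edgeR adjusted p = 0.14). Egln1 was the called member of 18 hypoxia-responsive genes (-0.36, edgeR adjusted p = 0.045, and -0.24 with 0.21 once the trend was removed). The lists of clock output, unfolded protein response, inflammatory and NF-kB, integrated stress response, p53 target, NRF2 target, splicing factor, nuclear lncRNA, Wnt feedback, growth factor receptor, glutamate and GABA receptor, and extracellular matrix genes had no called member and medians between -0.14 and 0.20.

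Markers of blood vessels and of the ventricle lining were lower in part. Mural cell markers were negative in 11 of 12 with a median of -0.89, and the called one, Myh11, the smooth muscle myosin, was near its detection limit (0.446 to 1.64 CPM at ZT0, 0 to 0.329 CPM at ZT12) and did not pass with the GC and length trend removed (edgeR adjusted p = 0.065). Rgs5, a pericyte marker, had -1.27 and Ttr, made by the choroid plexus, -1.49, both without a call (edgeR adjusted p = 0.25). NG2-Cre is also active in pericytes, which express Cspg4. Choroid plexus and ependymal markers were negative in 12 of 14 with a median of -0.48, and red blood cell markers positive in 7 of 8 with a median of 0.25. Endothelial and meningeal markers had medians of 0.07 and 0.21 and no call.

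Levels at the other KO times are given as measured, without removal of the GC and length trend. Basp1 was at 264 to 375 CPM at ZT6 and 426 to 475 CPM at ZT18, Bex3 at 59.1 to 86.1 CPM and 86.0 to 101 CPM, and Atp5k at 5.64 to 12.3 CPM and 10.4 to 18.6 CPM. For these 3 genes the ZT18 libraries thus lay above all ZT12 libraries. Mvd, at 37.5 to 52.6 CPM at ZT6 and 55.3 to 65.6 CPM at ZT18, and Hes5, at 29.5 to 50.9 CPM and 50.8 to 57.8 CPM, also stood higher at ZT18 than in any ZT12 library. Ankrd27, in turn, was at 40.4 to 46.2 CPM at ZT6 and 36.3 to 39.5 CPM at ZT18, between ZT12 and ZT0 at the last of these. All 4 libraries of KO ZT18 and 1 of 7 of KO ZT6 had a low ribosomal RNA share, which none of the 8 libraries compared had. Spearman's rho with GC content was 0.36 to 0.481 at KO ZT18, against -0.549 to -0.244 at KO ZT12. In these levels, time of day and such library traits cannot be told apart.

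The time difference of KO cells differed from that of WT cells. A test of the difference between the 2 changes called 1963 genes (8.61%) in the same edgeR fit: 1342 with a more negative change in KO and 621 with a more positive one. Of the 745 genes called in KO, 657 were among them. The KO change is part of this difference and comes from the same libraries, so the overlap is no independent support. Atp5k fell in KO while its log2 change in WT was 1.10 ± 0.28 (3.38 to 8.54 CPM at ZT0 and 10.3 to 14.5 CPM at ZT12), a difference of -2.84 ± 0.42 (edgeR adjusted p = 0.00056). Pcsk1n differed by -1.57 and Bex3 by -1.70, with WT changes of 0.65 and 0.62. Edf1, a transcriptional coactivator, and Gtf2f1, a subunit of the general factor TFIIF, had KO changes of -0.62 and -0.55 and WT changes of 0.70 and 0.48, and differed by -1.31 and -1.03 (edgeR adjusted p of 0.00060 for both). The KO change of Edf1 was -0.33 with the GC and length trend removed and did not pass (edgeR adjusted p = 0.079). For Basp1 and Pdcd5 the WT changes were 0.32 and 0.13, and the differences -1.11 and -1.08.

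Lists of genes differed between genotypes as well. The oxidative phosphorylation list had a median of 0.20 in WT against -0.41 in KO. Of its 24 genes, 17 differed between genotypes, against 8.61% of all genes tested. For cholesterol synthesis the medians were 0.19 and -0.42 and 9 of 24 genes differed (all genes, 8.61%), among them Mvd (-1.38), Nsdhl (-0.71) and Hmgcs1 (-0.69). Dbp differed by -1.07 ± 0.24 (edgeR adjusted p = 0.0054): it was at 12.9 to 16.1 CPM in WT at ZT0 and 16.8 to 19.3 CPM at ZT12, without overlap and opposite to KO. Clock and Per3 differed by 0.62 and 0.74 (edgeR adjusted p = 0.026 and 0.042). Of the risers, Elmo3 (1.63), Glis3 (1.36), Ptp4a1 (1.14), Alg8 (1.05) and Ankrd27 (0.46) differed, whereas for Abi3, Ceacam1, Naip6, Dennd2c, Myo7a and Notch2 the difference did not pass (edgeR adjusted p from 0.059 to 0.082). Immediate early genes had a median of 0.79 in WT and 0.02 in KO, and 6 of 35 differed (all genes, 8.61%).

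**Figure D5:**
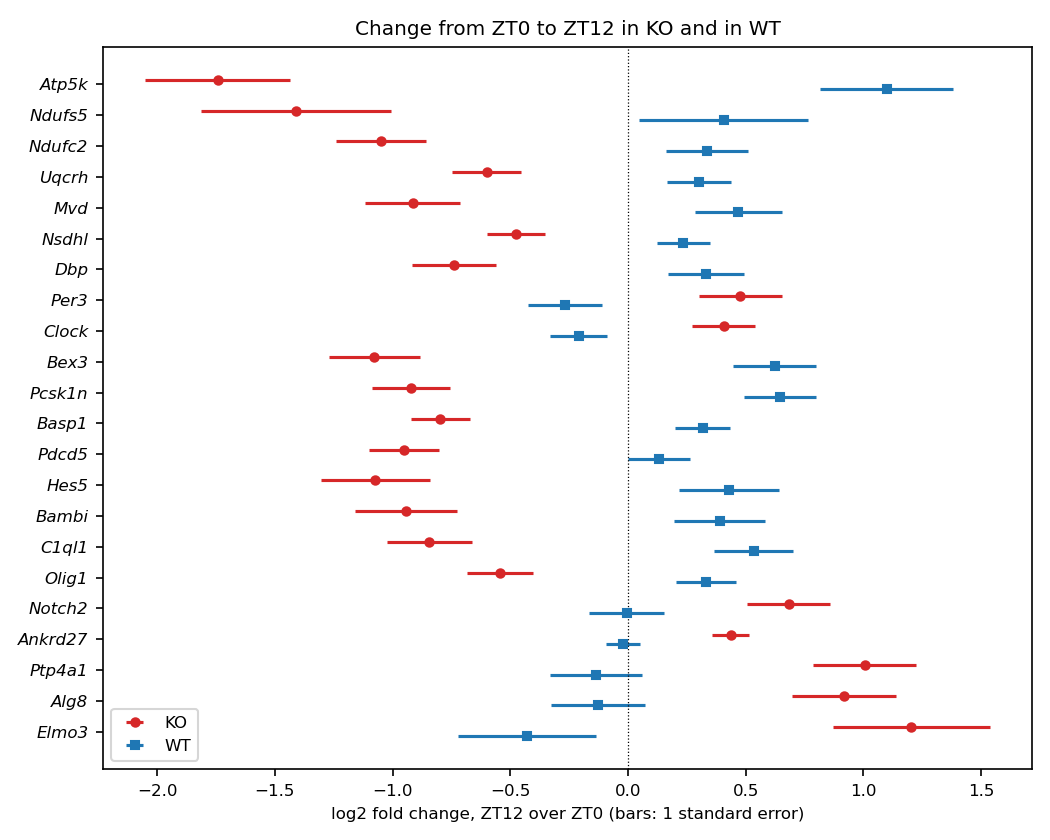
Log2 fold change of ZT12 over ZT0 (horizontal axis) with 1 standard error for 22 genes (rows), in KO (red circles) and in WT (blue squares). Most genes that fell in KO, such as Atp5k (-1.74 in KO and 1.10 in WT), lie on the other side of 0 in WT.

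This second comparison leans on libraries that stand apart. In WT at ZT12, 3 of the 6 libraries had a ribosomal RNA share under 0.3%, and without the low-share libraries of the whole study 181 genes differed between genotypes. WT ZT12 replicates 1, 2, 3 and 4 and WT ZT0 replicate 1 carried RNA of females only. The KO ZT12 libraries carried RNA of both sexes. Without the single-sex libraries of the whole study 758 genes differed. With scaling by RLE in place of TMM, 55.5% of the 1918 called genes were lower in KO, against 68.4% of the 1963. Spearman's rho with GC content was -0.00607 to 0.5 in the WT ZT12 libraries and -0.549 to -0.244 in those of KO ZT12. With the GC and length trend removed, 626 genes differed between genotypes. The differences given above for genes and lists come from the fit that kept this trend.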

How the data were processed

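Poly-A RNA of immunopanned mouse OPCs was sequenced in 38 libraries. The count table that the authors deposited holds unnormalized reads of each gene beside its name, biotype and position; per the submitters' processing notes, fastp, HISAT2 2.0.5 and featureCounts 1.5.0-p3 were used on GRCm38 (mm10). Annotation release and strand setting: not given in the sources used here. Hence overlapping or near-identical genes may share reads; 41 of the 116 genes named overlap another tested gene. Counts were used as deposited. Sample titles gave the groups and replicate numbers. In edgeR 4.0.16 (R 4.3.3), filterByExpr by group kept 22798 of 54532 genes, with 99.949% of counts, TMM scaling was applied, and glmQLFit and glmQLFTest were run on the 8 genotype by time groups of all 38 libraries, with Benjamini-Hochberg adjustment over all tested genes and calls at a false discovery rate of 0.05. Every adjusted p-value came from this test unless another tool is named. CPM divide each count by the library size after TMM scaling, in M. Genes named were Arntl, core clock genes, the 12 called genes of largest change per direction with a mean log2 CPM above 1, the 10 smallest p-values, the 6 smallest of the contrast between genotypes, and up to 4 members of each of 31 gene lists, from which the text takes a part; genes of families picked by symbol, Grk3, Ndufc2, Atp5e, Bex1, Bex2, Tceal6 and the cell type markers Csf1r, Cx3cr1, Slc1a3, Map2, Dcx, Rgs5, Ttr, Myh11 and Gap43 were added after their values were seen. Some marker results are not reported here. The comparison, the lists and 11 marker lists were chosen with earlier results of these data known. GC content is that of the longest GENCODE M21 transcript, and promoter windows are those of RefSeq. DESeq2 1.42.0, limma-voom (limma 3.58.1), other scalings and filters, subsets of libraries and a lowess trend on GC content and gene length per library, added after seeing the data, served as alternatives. Libraries of a group differed by a chi-square per degree of freedom of at least 20.21, so none was counted as a duplicate.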

Additional observations from a re-analysis of the deposited data

Results flagged for a closer look

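In the groups of 4 KO libraries, the highest or lowest library stood apart from the other 3 (gap over range above Dixon's critical value) in 7 of 232 pairs of gene and group examined, where chance flags about 1 in 20. KO ZT0 replicate 3 was highest for Uqcrh, at 103.6 CPM against 62.49 to 67.74 CPM, and for Pin4, at 11.5 CPM against 5.802 to 6.582 CPM, and lowest for Cspg4, at 744.4 CPM against 944.1 to 983.5 CPM. KO ZT12 replicate 3 was highest for Hspa5, at 1103 CPM against 842.4 to 884.9 CPM, and lowest for Ifit2, at 28.69 CPM against 38.49 to 38.87 CPM, and for Ndufa5, at 12.32 CPM against 20.56 to 22.03 CPM. KO ZT12 replicate 4 was highest for Mvd, at 48.38 CPM against 24.5 to 28.1 CPM.

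The change from ZT0 to ZT12 differed between genotypes for 67 of the 116 genes named, against 8.61% of all genes tested. The test was that of the difference in edgeR. Of these differences (KO change minus WT change, log2), 56 were below and 11 above 0. Many named genes were picked for a large or called KO change, and some by this contrast. The counts are thus set in part by that choice. All values come from the fit that kept the GC and length trend. Among respiratory and metabolic genes the differences were -2.84 for Atp5k, -1.82 for Ndufs5, -1.38 for Ndufc2, -1.33 for Ndufa1, -1.10 for Atp5e, -0.90 for Uqcrh, -0.79 for Ndufa5, -1.38 for Mvd, -0.71 for Nsdhl, -0.69 for Hmgcs1, -0.47 for Srebf2, -0.68 for Tecr, -0.54 for Scd2, -0.50 for Acsl3 and -0.83 for Hk1. For clock genes they were -1.07 for Dbp, 0.62 for Clock and 0.74 for Per3. Genes with the smallest p-values and largest falls had -2.39 for Hddc3, -2.31 for Efna3, -1.77 for Nat14, -1.76 for Rpp25, -1.72 for Pin4, -1.70 for Avpi1 and Bex3, -1.65 for Cdk5r2, -1.62 for Fah, -1.57 for Pcsk1n, -1.49 for Tceal6, -1.40 for Bex2 and Zmat5, -1.34 for Sncb, -1.32 for Bex1, -1.31 for Edf1, -1.22 for Eef1a2, -1.11 for Basp1, -1.08 for Pdcd5, -1.03 for Gtf2f1, -0.96 for Zrsr1 and -0.83 for Cd3eap. In signalling and lineage genes they were -1.50 for Hes5, -1.38 for C1ql1, -1.33 for Bambi, -0.92 for Nrarp, -0.88 for Olig1, -0.65 for Sirt2, -0.60 for Cnp, -0.52 for Cacng4 and -0.49 for Fyn. Stress and protein quality genes had -1.40 for Nr4a2, -1.06 for Ddit4, -1.03 for Rpl13, -0.77 for Psmc1, -0.72 for Fkbp4, -0.61 for Ahsa1, -0.58 for Psma6 and Stip1, and -0.52 for Ifit2. The genes with a more positive change in KO were, besides Clock and Per3, Elmo3 (1.63), Glis3 (1.36), Ptp4a1 (1.14), Icos (1.12), Alg8 (1.05), Stag3 (1.02), Abcb1b (0.88), Grk3 (0.88) and Ankrd27 (0.46).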

How the results depend on the processing

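The count of 745 genes in KO ZT12 against ZT0 kept within 1.5 times under RLE scaling, library size alone, no filter, a stricter filter and limma-voom, with 544 to 874 genes. It was 1391 with DESeq2, 298 with only the 19 KO libraries, 298 without the low-rRNA libraries, 264 with the GC and length trend removed, 35 without the single-sex libraries and 1 with only the 8 libraries compared. Removing the trend in those 8 libraries left 0 genes by edgeR, with 3026 at an unadjusted p under 0.05. Leaving out each replicate in turn gave 10 (without KO ZT0 replicate 3) to 1294 genes (without KO ZT12 replicate 4). The share of called genes that were lower at ZT12 also moved from the 74.9% reported. It was 61.9% with DESeq2, 66.3% with the trend removed, 67.6% with library size alone, 79.3% with limma-voom and 79.4% with no filter. Same-numbered KO libraries deviated together with correlations of 0.17, 0.176, 0.0624 and -0.184. With 4 libraries a group, these values cannot settle whether the numbers pair the libraries. With the replicate number as a block in the 8 libraries 0 genes were called by edgeR, with 3197 at an unadjusted p under 0.05 both with and without it.

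The 1963 genes that differed between genotypes became 1513 to 2584 under other scalings, filters and tools, 848 with only the 18 libraries compared, 758 without the single-sex libraries, 626 with the trend removed, 181 without the low-rRNA libraries, and 806 (without KO ZT0 replicate 3) to 3123 (without WT ZT0 replicate 4) when 1 replicate was left out; WT ZT0 replicates 2 and 3 and KO ZT12 replicate 1 gave 1123, 1292 and 1143. The share that was lower in KO was 68.4% with TMM, 55.5% with RLE, 53.1% with library size alone, 52.8% with DESeq2 and 53.8% with the trend removed. With the replicate number as a block in the 18 libraries 1 gene differed, Cebpb. The cause of these shifts was not tested. Each subset also holds fewer libraries, and the part this plays was not tested either. No named gene reversed while called under any alternative run. Of 2436 values of named genes, 609 lost their call. The 2436 include values of genes not called in the fit reported here, which had no call to lose. The share among called genes was therefore larger. The median of the leukocyte markers went from -0.55 to 0.41 without KO ZT0 replicate 3. With 4 libraries a group, changes of low genes such as Elmo3 and Myh11 are limited by few counts.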

Other observations

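On the first principal component of the 8 libraries (39.4% of the variance over 14084 genes), the KO ZT0 libraries lay at -33.6, -9.7, -31.3 and -6.3 and the KO ZT12 libraries at 19.1, 12.3, 53.9 and -4.4. KO ZT12 replicate 3 was farthest from ZT0, and replicate 4 was next to KO ZT0 replicate 4.

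Proteins of the cytosolic ribosome, as a family taken by symbol after the values were seen, had 99 genes tested. Of these, 6 were called lower (Rpl13, Rpl28, Rpl23a, Rps29, Rps28 and Rpl38), against 2.45% of all genes, and none higher. In the family 74 were negative, with a median log2 fold change of -0.19. No value with the GC and length trend removed is given for this family. For the list of 24 ribosomal genes the median went from -0.14 to 0.01 in that fit. Cytochrome c oxidase subunits had 3 of 15 called lower with a median of -0.39, and complex III genes 3 of 8 with a median of -0.34.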
